A study of Mus musculus with 12 samples.

Results

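The genes described here make, package and receive GABA, the main inhibitory transmitter of the brain. They are the glutamate decarboxylases Gad1 and Gad2, the vesicular transporter Slc32a1, and the GABA-A receptor subunits Gabra2, Gabra3, Gabrb1 and Gabrb2. Every probe whose gene symbol or synonym in the platform annotation named 1 of these 7 genes was taken, which gave 8 of 33012 probes. Gabrb2 had 2 probes, numbered 406109 and 732953 by the manufacturer, and each other gene had 1. That rule goes by gene names alone, but the genes were picked with earlier results of these data known. The study set male B6.CAST-17 mice, homozygous for a part of chromosome 17 from the CAST strain on the B6 background, against male wild type B6 mice. Hypothalamus of congenic mice, hypothalamus of wild type mice, skeletal muscle of congenic mice and skeletal muscle of wild type mice were each measured on 3 arrays, 12 in all. The titles of the congenic hypothalamus samples call the congenics short, the muscle titles do not, and the labels read here state neither ages nor treatments nor the ends of the transferred segment. A difference between the groups cannot be assigned to a single gene. With 3 arrays per group it also cannot be told apart from differences between arrays or dissections. In the gene table, Gad1, Gad2 and Slc32a1 lie on chromosome 2, Gabra2 and Gabrb1 on chromosome 5, Gabrb2 on chromosome 11 and Gabra3 on chromosome X. None of the 7 is on chromosome 17.

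GABA is made from glutamate by 2 decarboxylases, of which the Gad1 product is spread through the neuron and supplies most of its GABA, while the Gad2 product sits at nerve terminals. The Slc32a1 product loads GABA, and also glycine, into synaptic vesicles. Released GABA opens GABA-A receptors, chloride channels built from 5 subunits, usually alpha, beta and gamma chains, with GABA bound where alpha meets beta. GABA neurons are abundant in the hypothalamus, among them the feeding-promoting neurons of the arcuate nucleus.

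The 250 bases before the transcription start are shown for 3 of the genes, from RefSeq promoters of GRCm38.p6. Gad2 and Gad1 are shown because they encode the same enzyme activity but differ in this window, and Gabrb2 because its values differed most between arrays. Capitals mark exact matches on either strand to the RE1 element or to the TATA box, TATAAA. RE1 is bound by the repressor REST, which holds down neuronal genes in other tissues, and was searched as AGCACC, then 2 bases of any kind, then GGACAGC. Both motifs were chosen after the sequences had been read, and they do not overlap here. All 3 windows are on the plus strand, Gad2 at chr2:22622077-22622326, Gad1 at chr2:70561879-70562128 and Gabrb2 (the first of its 3 starts) at chr11:42420190-42420439.
Gad2: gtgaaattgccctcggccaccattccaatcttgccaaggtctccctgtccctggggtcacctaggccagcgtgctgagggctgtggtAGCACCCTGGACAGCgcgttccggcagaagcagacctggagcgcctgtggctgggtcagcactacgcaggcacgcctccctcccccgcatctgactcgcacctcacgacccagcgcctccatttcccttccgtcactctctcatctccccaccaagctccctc
Gad1: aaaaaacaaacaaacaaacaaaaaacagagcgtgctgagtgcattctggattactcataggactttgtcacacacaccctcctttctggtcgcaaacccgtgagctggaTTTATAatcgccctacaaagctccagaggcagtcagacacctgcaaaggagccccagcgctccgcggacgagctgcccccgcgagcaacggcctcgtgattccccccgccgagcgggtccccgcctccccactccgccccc
Gabrb2: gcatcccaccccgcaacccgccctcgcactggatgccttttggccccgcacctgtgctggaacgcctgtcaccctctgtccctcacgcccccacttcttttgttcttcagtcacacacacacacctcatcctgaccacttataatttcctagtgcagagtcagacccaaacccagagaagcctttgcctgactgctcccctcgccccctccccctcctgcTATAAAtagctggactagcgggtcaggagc
The Gad2 window held the RE1 letters on the coding strand, from base -163 to base -149 counted from the start. Of 32851 promoter windows of this length in the table, 9 held them (0.0274%), and those of the other members were not among the 9. Besides Gad2 they belonged to Lhx3, Hrh3, Gria2, Scamp5, Fbll1, Osbp2, Ogdhl and Gm32659. Gria2 encodes a glutamate receptor subunit and Hrh3 a histamine receptor. The TATA box letters stood on the coding strand at bases -30 to -25 of Gabrb2, and on the opposite strand at -141 to -136 of Gad1 and, not shown, before Gabra3. They occur in 12.4% of all windows. A match is a run of letters and does not show that a factor binds there.

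Values are log2 intensities as deposited, a unit inferred from their range, and the median of every hypothalamus array was 8.98 and that of every muscle array 9.12. No detection calls were available, so a value near or below these medians cannot be told from background. Wild type hypothalamus array 1 stood apart. Its Spearman correlation across probes with the other 5 hypothalamus arrays was 0.42 to 0.461, against 0.775 to 0.853 among those 5 and 0.796 to 0.862 among the muscle arrays. The strain comparison in hypothalamus is therefore given over all 6 arrays and without this array. Muscle markers had a median over 8 probes of 8.79 to 9.75 on the hypothalamus arrays and 19.83 to 20.15 on the muscle arrays. Hypothalamic markers had a median over 7 probes of 13.66 to 15.84 in hypothalamus and 8.58 to 9.68 in muscle. The tissue labels and these medians go together on every array. Single markers did not on wild type hypothalamus array 1, where Hcrt was 9.06, Ghrh 7.28 and Rax 7.64. There Sim1, Trh, Avp and Oxt were 13.66, 14.65, 16.87 and 18.69.

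The GABA-making enzymes did not pass the test of a strain difference. Gad1 was 16.30, 16.38 and 16.98 on the congenic hypothalamus arrays 1, 2 and 3, and 17.46, 16.55 and 16.31 on the wild type arrays. The strains overlapped, with the highest value on wild type array 1. The means were 16.55 ± 0.37 in congenic and 16.77 ± 0.61 in wild type hypothalamus (SD, n = 3 each), a difference of -0.22 (limma SE 0.57, 95% interval -1.52 to 1.08, adjusted p = 0.951). Without wild type array 1 the difference was 0.13 (95% interval -0.79 to 1.04, limma adjusted p = 0.974), so the sign turned with that array. Gad2, the isoform of nerve terminals, was 13.84, 14.34 and 14.53 in congenic hypothalamus and 12.37, 14.02 and 13.78 in wild type hypothalamus. Here wild type array 1 was the lowest of the 6, not the highest, and the other 5 arrays lay within 13.78 to 14.53. The difference was 0.85 (limma SE 0.66, 95% interval -0.67 to 2.37, adjusted p = 0.936) over all arrays. It was 0.34 (SE 0.31, 95% interval -0.38 to 1.06, limma adjusted p = 0.918) without array 1. The signal of the whole tissue was measured, so fewer cells of a type and less RNA per cell cannot be told apart for any of these genes.

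Slc32a1, the vesicular transporter, was 17.28, 16.46 and 18.85 in congenic hypothalamus, against 18.35, 17.53 and 17.87 in wild type hypothalamus. The 3 congenic values spanned the wild type ones, with both the lowest and the highest of the 6 among them. Means were 17.53 ± 1.22 and 17.92 ± 0.41 (SD, n = 3 each), a difference of -0.39 (limma SE 0.70, 95% interval -1.98 to 1.21, adjusted p = 0.941). Without array 1 it was -0.17 (95% interval -1.82 to 1.48, limma adjusted p = 0.982), and without congenic array 2, with all others kept, it was 0.15.

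Of the alpha subunits, Gabra2, which is common at synapses of the forebrain, was 11.29, 12.75 and 13.11 in congenic hypothalamus and 11.18, 11.47 and 11.65 in wild type hypothalamus. Congenic arrays 2 and 3 were above all wild type arrays, and congenic array 1 lay among them. The difference was 0.95 (limma SE 0.68, 95% interval -0.62 to 2.52, adjusted p = 0.936), and 0.82 (95% interval -0.36 to 2.00, limma adjusted p = 0.9) without wild type array 1. With 1 array dropped it ranged from 0.59 (congenic 3 dropped) to 1.49 (congenic 1 dropped), and was 0.46 with wild type array 1 and congenic array 3 both left out. Gabra3, another alpha subunit, was 7.78, 9.60 and 9.80 in congenic hypothalamus and 8.39, 6.81 and 8.23 in wild type hypothalamus. The same congenic arrays 2 and 3 were the highest, but only those 2 of the 6 arrays exceeded the array median of 8.98, and the values overlapped those of muscle. The difference of 1.25 (limma SE 0.71, 95% interval -0.39 to 2.88, adjusted p = 0.936) became 1.54 (SE 0.76, 95% interval -0.21 to 3.28, limma adjusted p = 0.9) without wild type array 1. Dropping wild type array 2 gave 0.75 and dropping congenic array 1 gave 1.89.

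Of the beta subunits, Gabrb1 was 14.09, 14.33 and 14.96 in congenic hypothalamus and 15.31, 14.64 and 14.34 in wild type hypothalamus. The groups overlapped, and wild type array 1 was the highest, as for Gad1. The difference was -0.30 (limma SE 0.59, 95% interval -1.66 to 1.06, adjusted p = 0.942), and -0.02 (SE 0.34, 95% interval -0.82 to 0.77, limma adjusted p = 0.995) without array 1.

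Gabrb2, by probe 406109, was 13.79, 13.74 and 13.48 in congenic hypothalamus and 8.22, 13.32 and 13.19 in wild type hypothalamus. The 3 congenic arrays lay above the 3 wild type arrays, and wild type array 1 was at the level of the muscle arrays. The difference of 2.09 over all arrays (limma SE 1.29, 95% interval -0.86 to 5.05, adjusted p = 0.936) was 0.42 without array 1 (SE 0.27, 95% interval -0.20 to 1.03, limma adjusted p = 0.9). The congenic arrays still lay above wild type arrays 2 and 3, with 13.67 ± 0.16 (n = 3) against 13.25 ± 0.10 (n = 2). Probe 732953 of the same transcript was 7.89, 7.33 and 8.77 in congenic and 9.24, 8.69 and 7.58 in wild type hypothalamus, which is around the array median. It differed by -0.50 over all arrays and by -0.14 without array 1 (limma adjusted p = 0.936 and 0.982). Both probes carry the same transcript accession, and they gave different pictures of it, 1 well above the array median in 5 of 6 arrays and 1 near it.

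**Figure D1:**
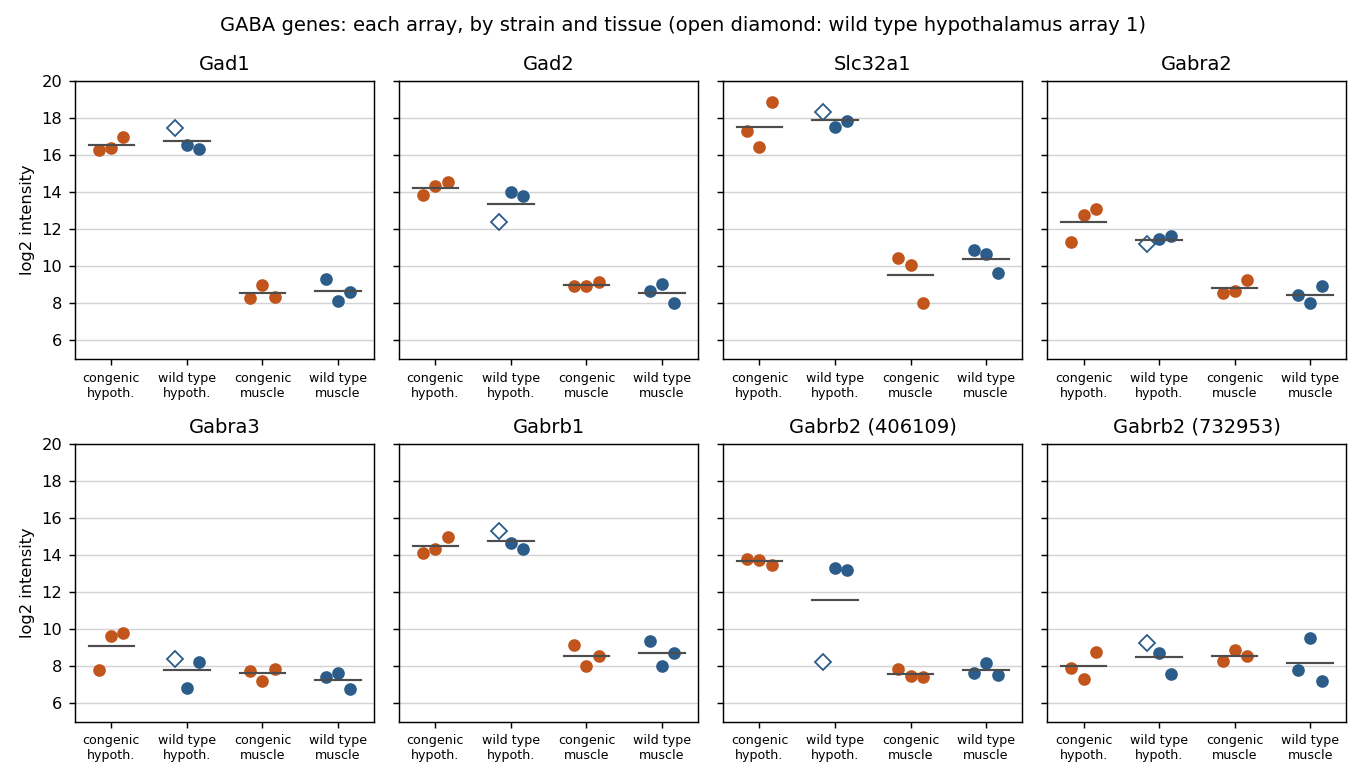
Log2 intensity (vertical axis) of the 8 probes on each of the 12 arrays, 1 panel per probe, with congenic left of wild type in each tissue; points are arrays 1 to 3 from left to right, lines are means of 3, and the open diamond is wild type hypothalamus array 1. Gad1, Gad2, Slc32a1, Gabra2, Gabrb1 and Gabrb2 probe 406109 were higher on every hypothalamus array than on any muscle array. The diamond of Gabrb2 probe 406109, at 8.22, lies far below the other hypothalamus arrays and just above the highest muscle array, at 8.15.

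Over the 8 probes, limma called 0 in hypothalamus at an adjusted p under 0.05, as it did over all 33012 probes (0%). An unadjusted p under 0.05 was found for 0 of the 8 and for 1.99% of all probes. Of the 8 probes 4 had a positive difference, against 46.3% of all probes, with a median of 0.32 against -0.07. The congenic arrays were all above wild type for 1 of the 8 (Gabrb2 probe 406109), against 3.47% of all probes. They were all below for 0 of 8, against 5.69% of all probes. Without wild type array 1 limma again called 0 of 8 and 0% of all probes, and an unadjusted p under 0.05 was met by 0 of 8 and 5.33% of all. Then 5 of 8 differences were positive, against 49.3%, with a median of 0.23 against -0.01. The same 1 probe had congenic arrays all above wild type, against 9.32%, and 0 of 8 had them all below, against 13.3%. The 8 probes were not tested against this background. Among the 5 arrays other than wild type array 1, congenic array 3 was the highest for 7 of the 8 probes, against 23.5% of all probes and 32.0% of the 4165 bright probes, those whose mean over these 5 arrays was above 13. With wild type array 1 and congenic array 3 both left out, a choice made after seeing the data, limma called 0 of the 8 and 1.84% of all probes (606). Of all probes 1.25% (414) were called higher in congenic and 0.582% (192) lower. The median of the 8 differences was then 0.05, and an unadjusted p under 0.05 was met by 2 of 8 and 15.8% of all probes. These 2 were Gabrb2 probe 406109, at 0.51 (limma adjusted p = 0.249), and Slc32a1, at -0.83 (limma adjusted p = 0.314).

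**Figure D2:**
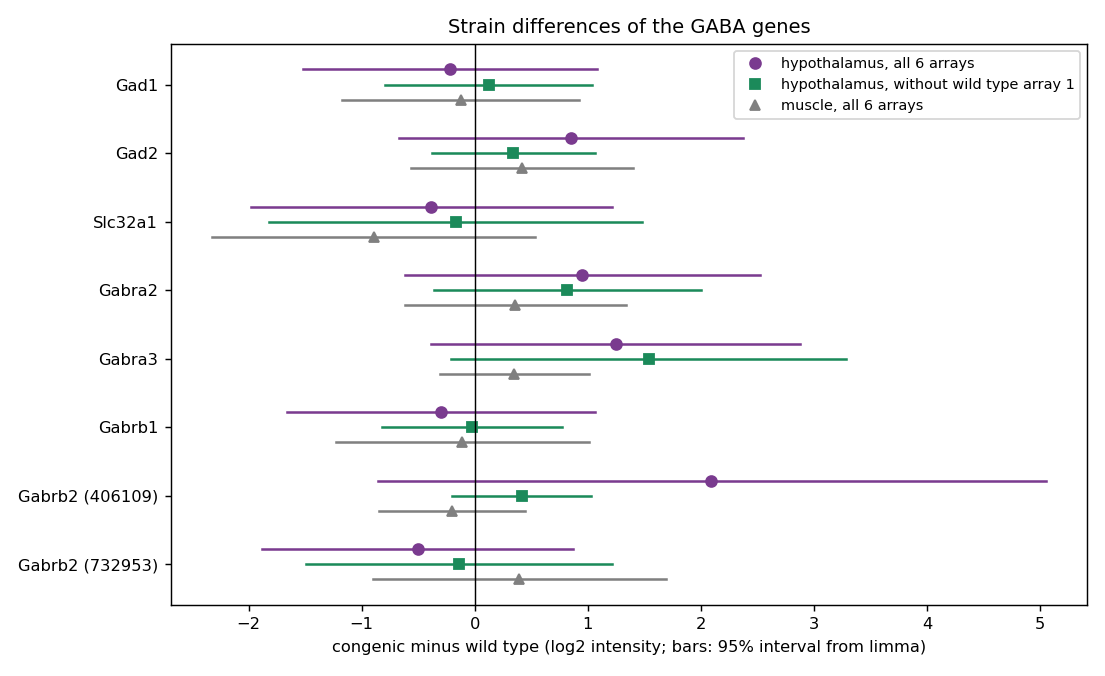
Congenic minus wild type (horizontal axis, log2 intensity) for each of the 8 probes, with 95% intervals from limma, for hypothalamus over 6 arrays, hypothalamus without wild type array 1, and muscle. Every interval holds 0, and the widest, that of Gabrb2 probe 406109 over all 6 arrays, runs from -0.86 to 5.05 and narrows to -0.20 to 1.03 without array 1.

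Wild type hypothalamus array 1 did not lower these genes together. For Gabrb2 probe 406109 it was at 8.22, which is 5.28 below the mean of the other 5 arrays (13.50 ± 0.26, SD, n = 5). For Gad2 it was 1.74 below them, at 12.37 against 14.10 ± 0.32. Yet for Gad1, Gabrb1 and Slc32a1 it was above their mean, by 0.96, 0.84 and 0.75. Of the 4165 bright probes, 1393 (33.4%) lost over 3 log2 units here and 1837 (44.1%) were higher here than elsewhere. The deviation of Gabrb2 stood at percentile 19.7 of those probes, that of Gad2 at 40.4, and those of Slc32a1, Gabrb1 and Gad1 at 68.9, 70.9 and 73.2. So 3 of the 5 brighter members lay in the upper group of probes and 1, Gabrb2, in the lower group. The medians of the astrocyte, oligodendrocyte and microglia lists were lower on array 1, at 9.50, 7.82 and 9.28, against 10.99 to 11.14, 9.80 to 10.01 and 13.09 to 13.22 on wild type arrays 2 and 3. Within these lists markers went both ways. Aldoc, an enzyme of astrocytes, was 9.16 on array 1 and 18.56 to 19.41 on wild type arrays 2 and 3, whereas C1qa, a complement protein made by microglia, was 16.77 on array 1 and 14.38 to 14.61 on those 2. The 9 pan-neuronal markers were also mixed. Their median was 12.23 on array 1 and 11.54 to 12.38 on the other wild type arrays, but Eno2, a neuronal enolase, was 9.08 on array 1 and at least 16.45 on the other 5. Snap25, a synaptic protein, was between 7.33 and 8.26 on all 6 arrays. Their part in the results for the members was not tested.

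**Figure D3:**
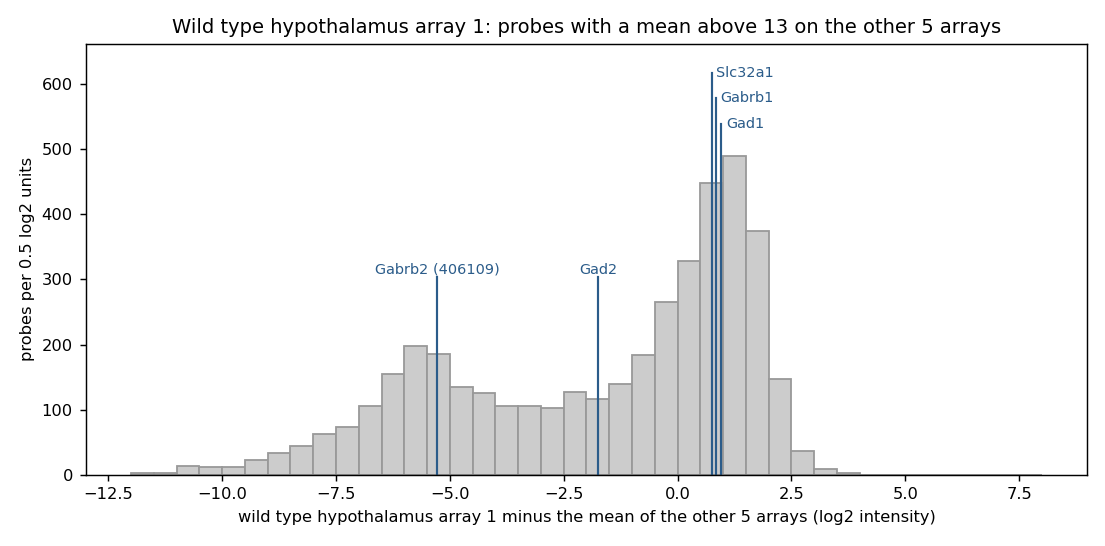
Histogram of wild type hypothalamus array 1 minus the mean of the other 5 hypothalamus arrays (horizontal axis, log2 intensity; vertical axis, number of probes per bin) over the 4165 bright probes, with lines at the 5 members in that range. Gabrb2 probe 406109 (-5.28) lies in the left hump, Gad2 (-1.74) between the humps, and Slc32a1, Gabrb1 and Gad1 (0.75 to 0.96) in the right hump.

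Markers of other cells and of neighbouring regions were read on the same arrays. Anterior pituitary markers had a median over 6 probes of 15.25 on congenic array 1, and of 9.49 to 10.71 on the other 5. Growth hormone, Gh, was 17.46 on congenic array 1 and 7.57 to 8.86 on the other 5. Prl, Pomc, Cga and Lhb were also highest on congenic array 1, though Lhb was 11.49 there and 11.13 on congenic array 2. Tshb was highest on wild type array 1, at 12.92 against 12.35 on congenic array 1. Congenic array 1 was the lowest of the congenic arrays for Gad1, Gad2, Gabra2, Gabra3 and Gabrb1. It was the highest of them for Gabrb2 probe 406109, and congenic array 2 was the lowest for Slc32a1 and Gabrb2 probe 732953. These ranks were not set against those of all probes. Markers of striatum, a region rich in GABA neurons, had a median over 3 probes of 11.66 to 12.48 in congenic and 12.83 to 13.21 in wild type hypothalamus, without overlap. That median was set by Ppp1r1b, a phosphatase inhibitor of striatal neurons, and the other 2, Rgs9 and Drd1, overlapped between the strains. Drd1 was 9.95 to 10.12 in congenic and 10.06 to 10.32 in wild type hypothalamus. Astrocyte markers had a median over 5 probes of 11.32 to 11.89 in congenic and 9.50 to 11.14 in wild type hypothalamus, also without overlap. Of those 5 probes, that of Slc1a3, a glutamate transporter, did not overlap (11.32 to 11.75 in congenic, 10.31 to 11.14 in wild type hypothalamus), and the other 4 did. The median of the oligodendrocyte markers reached 12.57 on congenic array 3, against 9.76 to 10.88 on congenic arrays 1 and 2 and 7.82 to 10.01 in wild type hypothalamus. Of that list Mbp, Mag, Cnp and Olig1 were highest on congenic array 3, and Mog and Olig2 were not. Mog was 12.75 there and 12.91 on wild type array 3. Olig2 was 9.75 there, and 10.05 and 10.04 on congenic arrays 1 and 2. The part of these differences in the values of the GABA genes was not tested.

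In muscle most values of the genes were below the array median and cannot be told from background. Of the 48 values of the 8 probes on the 6 muscle arrays, 37 were below the array median. Slc32a1 was above it on 5 of the 6 arrays, with 10.45, 10.08 and 8.03 in congenic and 10.89, 10.68 and 9.66 in wild type muscle. The difference of -0.89 (limma SE 0.64, 95% interval -2.32 to 0.53, adjusted p = 0.835) did not pass the test, and the groups overlapped. It was -0.15 without congenic array 3 and -0.48 with array weights. Gad1 was 8.28, 9.0 and 8.37 in congenic and 9.33, 8.11 and 8.59 in wild type muscle, and Gad2 8.95, 8.92 and 9.15 in congenic and 8.68, 9.06 and 8.02 in wild type muscle. Gabra2 ranged from 8.05 to 9.27 over the 6 muscle arrays, Gabrb1 from 8.0 to 9.36, Gabrb2 probe 406109 from 7.42 to 8.15, probe 732953 from 7.19 to 9.50, and Gabra3 from 6.76 to 7.84. The differences of these 7 probes lay between -0.20 and 0.42. In muscle limma called 0 of the 8 probes, against 0.0182% of all probes (6 of 33012), and an unadjusted p under 0.05 was met by 0 of 8 and 5.01% of all. A positive difference was found for 4 of 8 probes, against 51% of all, with a median of 0.12 against 0.01. The congenic arrays were all above wild type for 0 of 8 (6.65% of all probes) and all below for 0 of 8 (5.27%).

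For 6 of the 8 probes the lowest hypothalamus array was above the highest muscle array. The margin was narrow for Gabrb2 probe 406109, at 8.22 on wild type hypothalamus array 1, below the array median, and 8.15 on the highest muscle array. The arrays of each tissue share 1 distribution of values and so appear to have been normalized separately, so no test was made between tissues. Gad1 averaged 16.66 over the 6 hypothalamus arrays and 8.61 over the 6 muscle arrays, a difference of 8.05, and Slc32a1 17.72 and 9.97, a difference of 7.76. The differences of Gabrb1 and Gad2 were 5.98 and 5.02. Gabrb2 probe 406109 averaged 12.62 in hypothalamus, or 13.50 without wild type array 1, and 7.67 in muscle. Gabra2 averaged 11.91 in hypothalamus and 8.65 in muscle. In these 6 the order of the 4 groups was the same in 1 respect, with both hypothalamus groups above both muscle groups, while no strain difference within a tissue passed the test. Gabra3 averaged 8.43 in hypothalamus and 7.43 in muscle and Gabrb2 probe 732953 8.25 and 8.36, and for both the tissues overlapped.

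The genes whose pattern was most like that of the synthesis and packaging genes were named by the root mean square difference over the 12 arrays, after each probe was centred on its own mean. Tissue is the main difference shared by these arrays. Nearest to Gad1 were Mapk10, a stress kinase of neurons, at 0.23, Syt4, a synaptotagmin, at 0.43 and Tspyl4 at 0.51. Mapk10 was 16.47, 16.34 and 16.98 in congenic and 17.78, 16.37 and 16.34 in wild type hypothalamus, and 8.45 to 8.95 in muscle. Its highest value was also on wild type array 1. Nearest to Gad2 were Kcnd2, a potassium channel, at 0.50, Lrfn5, a synaptic adhesion protein, at 0.54 and the adhesion protein Chl1 at 0.54. Nearest to Slc32a1 were Tspyl4 at 0.67, Asic2, an acid-sensing ion channel, at 0.71 and Tro at 0.74.

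The rest of GABA signalling was read from 7 further lists with 34 measured genes on 36 probes, and 0 of the 36 passed limma in hypothalamus over all arrays, without wild type array 1, or in muscle. An unadjusted p under 0.05 was met by 3 of 36 in hypothalamus over all arrays (1.99% of all probes), by 3 of 36 without array 1 (5.33% of all) and by 1 of 36 in muscle (5.01% of all). Over all hypothalamus arrays 19 of 36 differences were positive, against 46.3% of all probes, with a median of 0.03. Without array 1 they were 18 of 36, against 49.3%, with a median of 0.00. In muscle 19 of 36 were positive, against 51%, with a median of 0.04. With wild type array 1 and congenic array 3 both left out, 0 of 36 passed (1.84% of all probes), and the smallest limma adjusted p was 0.0554, that of Dlx1.

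Of 9 other GABA-A subunits measured of 15 listed, 6 were positive over all arrays and 3 without array 1, with medians of 0.03 and -0.15. Gabrr2, a rho subunit best known from retina, was 9.01, 7.39 and 9.13 in congenic and 10.07, 10.41 and 9.86 in wild type hypothalamus. The congenic arrays were all below the wild type arrays, as for 5.69% of all probes (13.3% without array 1), with a difference of -1.60 (limma SE 0.68, adjusted p = 0.936), and -1.63 without array 1 (limma adjusted p = 0.9). Gabra5, an alpha subunit found largely outside synapses, differed by 0.03 over all arrays and by -0.28 without array 1. Gabrp, the pi subunit, differed by 0.23 and 0.63. Gabbr1, a subunit of the GABA-B receptor, is the 1 gene of the 34 on chromosome 17. It was 7.75, 8.84 and 12.86 in congenic and 7.23, 8.59 and 9.12 in wild type hypothalamus, so that congenic array 3 alone was high. The difference of 1.5 (limma SE 1.26, adjusted p = 0.936) was 0.96 without wild type array 1 (limma adjusted p = 0.944). With congenic array 3 left out as well it was -0.56 (limma adjusted p = 0.74), so the sign turned with that array. On the remaining arrays Gabbr1 was near or below the array median and cannot be told from background.

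GABA is taken up by transporters and broken down by Abat, the GABA transaminase, and Aldh5a1, the next enzyme of that pathway. Abat, by its brighter probe, was 17.96, 17.72 and 18.73 in congenic and 19.85, 19.28 and 19.37 in wild type hypothalamus. The congenic arrays were all below the wild type arrays, as for 5.69% of all probes (13.3% without array 1). The difference was -1.36 (limma SE 0.51, 95% interval -2.53 to -0.19, adjusted p = 0.936), and -1.19 without array 1 (95% interval -2.61 to 0.24, limma adjusted p = 0.9). For the dimmer Abat probe, 863243, the strains overlapped. It differed by -0.83 over all arrays and by -0.24 without array 1 (limma adjusted p = 0.936 and 0.964). Aldh5a1 differed by -1.03 and by -0.58 without array 1, and Slc6a13, a GABA transporter, by 0.21 and 0.36. In that list 2 of 6 probes were positive over all arrays and 3 of 6 without array 1.

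Among transcription factors of GABA neurons, Gsx1 was 9.35, 8.60 and 8.81 in congenic and 11.65, 10.52 and 10.51 in wild type hypothalamus. The groups did not overlap, and the difference was -1.98 (limma SE 0.64, adjusted p = 0.936), or -1.60 without array 1 (limma adjusted p = 0.9). In muscle Gsx1 ranged from 8.32 to 9.44, and its congenic values in hypothalamus cannot be told from background. Dlx1 differed by 0.39, and by 0.86 without array 1 (limma adjusted p = 0.9), with the congenic arrays then above the wild type arrays. Dlx2 differed by -1.56 and -1.11. Over all arrays 1 of the 5 probes was positive, and 2 of 5 without array 1. Of the chloride transporters that set the direction of the GABA current, Slc12a5 differed by -0.41 and Slc12a2 by 1.37, and without array 1 by -0.99 and -0.10. Of the scaffold and trafficking genes 7 of 11 probes were positive, and 8 of 11 without array 1, when Nsf differed by 0.53, Ubqln1 by 0.51 and Gabarapl2 by 0.29 for probe 381588 and by 0.09 for its brighter probe 898845. Slc17a6, the glutamate transporter of most excitatory hypothalamic neurons, was 14.64, 13.89 and 15.35 in congenic and 7.61, 14.23 and 14.11 in wild type hypothalamus. It differed by 2.65 over all arrays and by 0.46 without array 1, and Slc17a8, another vesicular glutamate transporter, by -0.50 and -0.45.

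**Figure D4:**
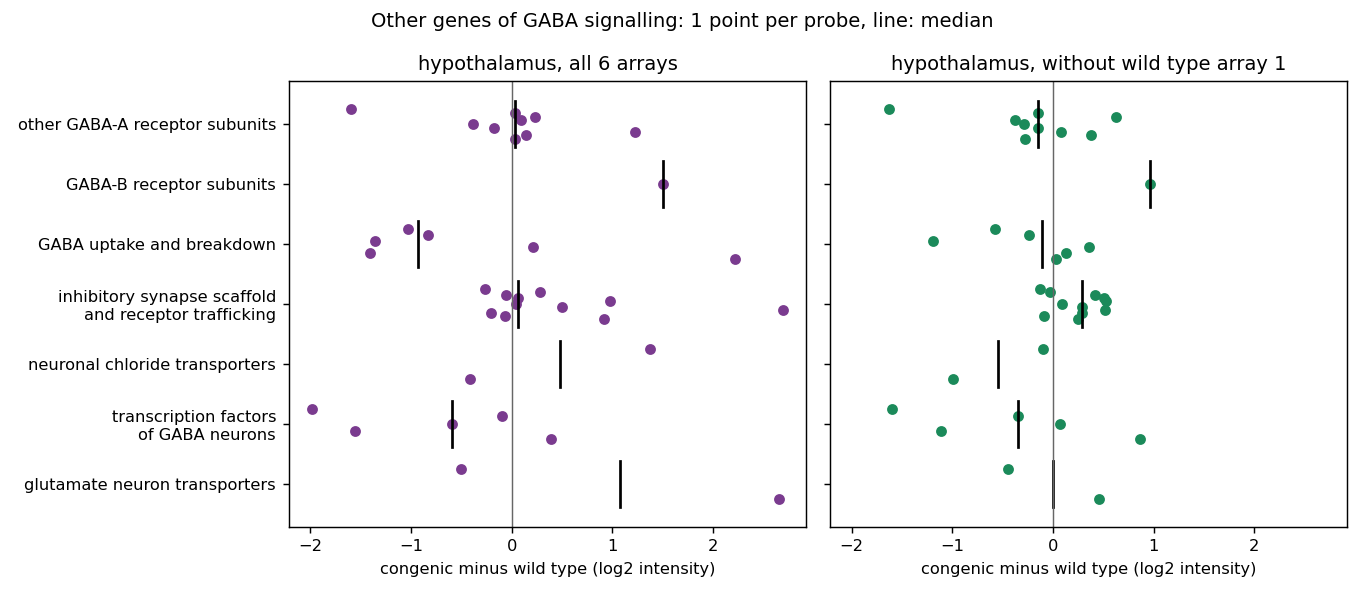
Congenic minus wild type (horizontal axis, log2 intensity) for 36 probes of other genes of GABA signalling in hypothalamus, 1 row per list, over all 6 arrays (left) and without wild type array 1 (right); points are probes and vertical lines are list medians. The 3 points above 2 on the left, Slc6a11 (2.22), Slc17a6 (2.65) and Gabarapl1 (2.69), are at 0.03, 0.46 and 0.52 on the right, and no probe passed the test in either.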

How the data were processed

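RNA of hypothalamus and skeletal muscle was measured on 12 one-colour arrays, with digoxigenin-labelled cRNA made with an Applied Biosystems chemiluminescent kit, per the labels' protocols. The authors deposited 1 value per probe and array, taken here as log2 intensity. The base was inferred from the range of 5.35 to 21.1, and neither the software nor the background correction is stated. The 6 arrays of a tissue share 1 distribution of values. Values were used as deposited, with no filter, so all 8 probes of the members entered every test. Groups came from the sample titles, since the description names the congenic strain even for wild type samples. The number of arrays limits the precision. Per the series' design text, the 3 arrays of a group are 3 mice.

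Of 33012 probes, 14411 carried 1 gene symbol in the platform annotation, 247 several and 18354 none, and 14402 were matched to a RefSeq table of GRCm38.p6 for current names and chromosomes. Congenic minus wild type was fitted in each tissue alone over all probes with R 4.3.3 and limma 3.58.1 (eBayes on a linear fit, mean-variance trend on), two-sided, with Benjamini-Hochberg adjustment over all probes and a threshold of 0.05. The fit was also run on simulated data with independent normal noise, which did not imitate the uneven signal of wild type hypothalamus array 1. Named beside the members were, per further list, genes that passed or else the 3 with the smallest p in hypothalamus without wild type array 1. Alternatives left out each array, used the replicate number as a block, and changed the scaling, floor, filter and variance model. Members, lists and tests were chosen with earlier results of these data known. Leaving out wild type array 1 and congenic array 3 together was added after seeing the data, as were the motif search and the counts of calls for this and 2 other settings (array 1 of both strains left out, pan-neuronal centring).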

Additional observations from a re-analysis of the deposited data

How the results depend on the processing

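In hypothalamus limma called 606 probes with wild type array 1 and congenic array 3 both left out and 0 under every other alternative run. The cause was not tested. Under those others an unadjusted p under 0.05 was met by 185 to 3328 probes. The 185 were of the 15987 probes with a mean above the median, and the 3328 were of all 33012, with array weights. With array weights the smallest limma adjusted p was 0.0503, just over the threshold. No member passed under any of the alternatives (limma adjusted p of 0.249 or more). The median difference of the 8 members, 0.32 over all arrays, was 0.08 to 0.48 with 1 array left out, 0.09 with array weights and 0.85 with the brightest probe of each gene. With arrays centred on the pan-neuronal markers it was -0.29, where the median of all probes shifted by -0.61. Dropping array 1 of both strains, Gad1 gave 0.25 and Gabrb1 0.16, against -0.22 and -0.30 over all arrays. With 1 array left out, Gad1 ranged from -0.45 to 0.13 and Slc32a1 from -1.05 to 0.15 in hypothalamus. In muscle the ranges were -0.45 to 0.23 for Gabrb1, -0.41 to 0.20 for Gad1, -1.36 to -0.15 for Slc32a1 and -0.09 to 1.06 for Gabrb2 probe 732953. The causes were not tested. Probes called in muscle numbered 2 to 8 with 1 array left out, against 6 over all arrays (dropping congenic array 2, wild type array 2 or wild type array 3 gave 3, 2 and 3), 2 with values floored at the 20th percentile, 2 without the mean-variance trend and 1 with all 12 arrays in 1 fit. With probes of a mean above the median only, Slc32a1 alone remained of the members in muscle, so their median was its -0.89. Gabra3 was at the floor on all muscle arrays and had no value there. With the replicate number as a block limma called 0 probes in hypothalamus and 6 in muscle, and no call of a member changed. Same-numbered arrays of the 2 strains had deviations correlated at 0.034, -0.129 and 0.138 in hypothalamus and 0.069, 0.015 and 0.063 in muscle. With 3 arrays per group these values cannot settle whether the numbers pair the samples. Signal over background is unknown, which limits Gabra3, Gabrb2 probe 732953 and all members in muscle. The same limit holds in hypothalamus for Gabrr2, Gabrp, Gabbr1, Slc6a13, Slc12a5, Slc17a8 and Gsx1. Their values were near or below the array median on some or all arrays.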

Other observations

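The uneven loss of signal on wild type hypothalamus array 1 was also seen among the other genes of GABA signalling. Of their 12 bright probes (mean above 13 over the 5 remaining hypothalamus arrays), 3 lost over 3 log2 units on array 1 and 6 were at or above the mean of those 5. Slc6a11, a GABA transporter of astrocytes, was 8.81 on array 1 and 14.76 to 16.56 on the other 5, and Gabarapl1, a protein of receptor trafficking and autophagy, was 8.75 against 14.60 to 17.98. Slc17a6, which marks glutamate neurons, was 7.61 against 13.89 to 15.35. The chloride importer Slc12a2, whose mean was just under that limit, was 8.39 against 12.35 to 13.06. Abat, Hap1 and Dlx1 were 19.85, 18.45 and 14.05 on array 1, at 17.72 to 19.37, 17.41 to 18.63 and 12.46 to 13.75 on the other 5. Slc6a12, the betaine and GABA transporter, was 12.45 on array 1, above 7.34 to 8.55 on the other 5.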
